A study of Mus musculus with 35 samples.

Results

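The bortezomib response of podocytes from mice with the H77L mutation was set against that of podocytes from mice with the C118F mutation, gene by gene. The quantity is an interaction: bortezomib minus DMSO in H77L, less bortezomib minus DMSO in C118F, on the log2(TPM + 1) scale, where TPM is a read count scaled for transcript length and library size. A negative interaction means a lower response in H77L than in C118F. It used 23 of the 35 mice of the series, namely 6 H77L mice with DMSO, 6 H77L mice with bortezomib, 6 C118F mice with DMSO and 5 C118F mice with bortezomib. The test covered 11046 of 33292 genes, those whose TPM exceeded 1 throughout any of these 4 groups.

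The mutant mice carried the H77L or the C118F knock-in allele of Lmx1b opposite a floxed one (H77L/lox and C118F/lox), and the controls, labelled WT, were Lmx1b +/lox. Every mouse thus had 1 floxed Lmx1b allele, and all carried a podocyte-specific promoter driving rtTA, a tetO-driven Cre and the mT/mG colour reporter on a C57BL/6 background. The mice were 7 to 10 weeks old and drank doxycycline at 2 mg/ml for 7 days, which switched on Cre in podocytes, removed homeodomain exons of the floxed allele and turned the podocytes green. Over the same days they received bortezomib at 0.3 µg/g by intraperitoneal injection every other day, or DMSO. Green cells were sorted on day 7 and their poly(A) RNA was sequenced, 1 library per mouse. The knock-in allele and the treatment were present in the whole animal, and only the loss of the floxed allele was limited to podocytes, so that responses of the podocytes themselves and of their surroundings cannot be told apart.

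LMX1B is a LIM-homeodomain transcription factor of podocytes, the cells whose interdigitating foot processes and slit diaphragms form the outer layer of the glomerular filter. Its LIM domains are zinc-binding folds that contact cofactors such as LDB1, and mutations in LMX1B cause nail-patella syndrome and a related glomerular disease. H77L replaces a zinc-binding histidine of the first LIM domain and C118F a zinc-binding cysteine of the second. Such misfolded proteins are cleared by the proteasome, which bortezomib inhibits. The comparison addresses whether transcripts respond alike to the drug when the one or the other LIM domain is affected. RNA does not show the level of the mutant proteins. It thus cannot tell how far they were stabilised or whether they then act alike. Cells with an inhibited proteasome are known to induce cytosolic chaperones through heat shock factor 1.

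Both mutated codons are shown in capitals within 51 bases of the reference coding strand (GRCm39, minus strand), to place the lesions that define the compared lines. The study's numbering was matched by a single shift of 6 codons of the 61 tried on the transcript Lmx1b-201, the shift that gives a histidine and a cysteine codon at the mutated positions (codons 83 and 124 of that transcript). The first lies in exon 2 at chr2:33529572-33529622 and the second in exon 3 at chr2:33459243-33459293.
H77L site: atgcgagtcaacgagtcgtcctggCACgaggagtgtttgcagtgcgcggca
C118F site: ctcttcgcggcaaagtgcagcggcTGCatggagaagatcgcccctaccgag

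The sorted cells held high levels of all 10 podocyte markers. Their mean was 8.33 to 9.51 on the log2(TPM + 1) scale in the 23 mice and 10.01 to 10.47 in the controls. Libraries held 5268967 to 24148735 reads, and C118F Btz mouse 2 was the shallowest. C118F DMSO mouse 1 stood apart with means of 3.98 for 12 endothelial, 4.84 for 11 mesangial or muscle and 1.68 for 18 leukocyte markers. C118F DMSO mouse 4 had 2.26 for the endothelial and 4.25 for the 15 proximal tubule markers, and H77L DMSO mouse 5 had 5.96 for the latter. All 3 of these mice had received DMSO. The 20 other mice lay at 0.54 to 1.80 for the endothelial and at 1.30 to 4.27 for the proximal tubule markers, and the highest of them, H77L Btz mouse 4, was level with C118F DMSO mouse 4 in the latter. Y-linked genes summed to at most 0.755 TPM in any of the 23 mice, in H77L DMSO mouse 5, and Xist was at 8.46 to 22.7 TPM. The Y-linked level used as a covariate below thus does not stand for a difference of sex. Mouse numbers ran from 46621 to 48982 in H77L, whereas treated C118F mice 3, 4 and 5 had 50091, 50095 and 50096. Of C118F mice with DMSO, mice 5 and 6 had 49335 and 50093 and the others 46301 to 47672. Mouse number is thus in part confounded with line and, within C118F, with treatment. Fewer cells of a type and less RNA per cell cannot be told apart in such sorted pools.

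Not a single gene passed the test of the interaction. The lowest adjusted p in the limma fit over 11046 genes was 0.574. An unadjusted p under 0.05 was reached by 840 genes (7.60%), 328 with a higher response in H77L (2.97%) and 512 with a lower one (4.64%). Fitting the reads recovered from the TPM values with limma's voom gave 0 calls as well, with 921 genes at an unadjusted p under 0.05. This number moved with the fit. It was 533 with endothelial markers and 576 with mouse number as a covariate, and 1172 with array weights. Without C118F DMSO mouse 6 it was 1576. Without the 3 mice with markers of other cells 240 genes were higher and 258 lower at this threshold. The precision was moderate. The median standard error of an interaction was 0.24, and the median 95% confidence interval reached 0.49 to either side. For 8367 genes (75.7%) the interval lay wholly between -1 and 1, that is, within 2-fold in TPM + 1. This scale understates differences of genes with low TPM, for which a 2-fold difference in TPM is not excluded by such an interval. Interactions beyond 1 in size were estimated for 162 genes, 66 positive and 96 negative. Differences of this size were thus not shown for any gene, nor were they excluded for genes with wider intervals. The share of negative interactions among the genes at this threshold in each fit depended on the scaling, the covariates and the mice. On the deposited scale it was 49.7% with mouse number and 53.7% with endothelial markers as a covariate, and 65.7% with array weights. It was 51.8% without the 3 mice with markers of other cells. Leaving out 1 mouse gave 51.4% (C118F Btz mouse 4) to 66.9% (H77L Btz mouse 1). In the main fit the share was 61.0%. It was 51.2% with a median-ratio scaling, 45.5% after quantile normalisation and 44.6% after centring each mouse on its median. The median interaction of all genes was -0.07 on the deposited scale.

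Of the 840 genes, 446 had estimates below 0 in H77L and above 0 in C118F, 285 the opposite, 62 were below 0 in both lines and 47 above 0 in both. Across all genes the responses of the lines, which came from separate mice, had a Pearson r of 0.359 and a Spearman rho of 0.140. This is a description across 11046 genes, which are not independent replicates and whose values within a mouse share its library. Estimates had the same sign in 53.9% of the genes. Over all genes 4483 interactions were positive and 6563 negative, which is the background for the counts of signs in the lists below.

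**Figure D1:**
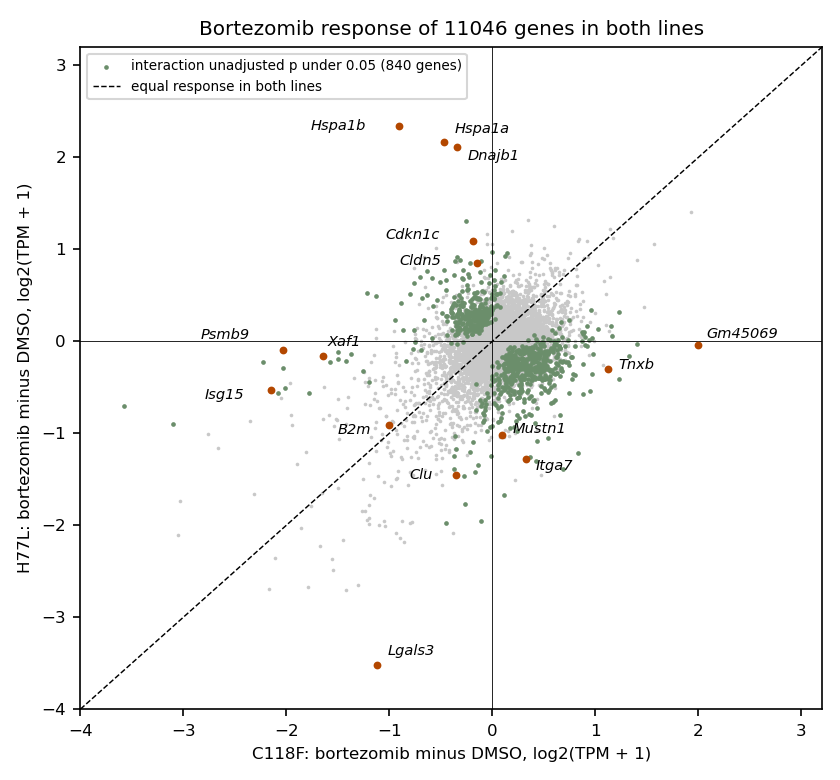
Bortezomib minus DMSO in C118F (x axis) and in H77L (y axis) for 11046 genes, in log2(TPM + 1), with 1 point per gene. Green points have an unadjusted interaction p under 0.05 (840 genes), orange points are named, and the dashed line marks equal responses. Lgals3 lies at -3.52 in H77L and -1.12 in C118F, the chaperones Dnajb1, Hspa1a and Hspa1b lie above 2 in H77L, and Isg15 and Psmb9 lie below -2 in C118F. No gene passed the interaction test.

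Each line was then read on its own in the same fit. Bortezomib changed 18 genes in H77L (0.163% of those tested), of which 17 fell (0.154%) and 1 rose (0.00905%), and 2 genes in C118F (0.0181%), of which 1 rose and 1 fell (0.00905% each). An unadjusted p under 0.05 was more frequent: 6.69% of all genes were higher and 6.19% lower with bortezomib in H77L, and 7.28% higher and 3.50% lower in C118F. That a gene passed in 1 line and not in the other does not show a difference between the lines, which is what the interaction tests. The number for H77L was fragile: it was 0 without H77L Btz mouse 2, 4 or 6 or without H77L DMSO mouse 2, 4 or 6, 3 without H77L Btz mouse 3 and 2 without C118F Btz mouse 4. It was 12 without H77L Btz mouse 5 or H77L DMSO mouse 3, 29 without C118F Btz mouse 5, 41 without H77L Btz mouse 1, 45 without H77L DMSO mouse 1, 46 or 51 without C118F DMSO mouse 1 or 3 and 66 without H77L DMSO mouse 5. The number for C118F was 34 without C118F DMSO mouse 3, 10 without C118F DMSO mouse 4 or H77L DMSO mouse 6, 5 and 4 without H77L DMSO mouse 2 and 4, 1 without C118F DMSO mouse 5 or C118F Btz mouse 4, and 0 without C118F DMSO mouse 1, 2 or 6, H77L DMSO mouse 3 or C118F Btz mouse 2, 3 or 5.

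Lmx1b itself (chr2:33450977-33531093) was transcribed in all groups. Its TPM was 89.9 to 139 (median 120) in H77L with DMSO and 86.7 to 161 (median 93.8) with bortezomib. In C118F it was 37.4 to 185 (median 104) with DMSO, and with bortezomib it was 67.5, 128, 123, 152 and 145. All groups overlapped, and the interaction was -0.59 (95% confidence interval -1.37 to 0.19, adjusted p = 0.675). It was -0.34 without C118F DMSO mouse 1 and -0.14 without the 3 mice with markers of other cells. These are reads of the whole locus, so that the mutant and the recombined floxed allele are counted together and the values do not check the labels. Of 11 genes for LMX1B and partners of LIM domains, 7 were tested and 0 passed the interaction test. Their median interaction was -0.07, equal to that of all genes to 2 decimals (0.00 without the 3 mice), and Lmo4, a LIM-only protein that binds the same cofactor, had 0.48 (adjusted p = 0.650).

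Lgals3, which encodes the sugar-binding galectin 3 and is raised in injured epithelia, had the lowest response to bortezomib of the genes called in H77L. It ran from 43.7 to 849 TPM (median 191) in H77L mice with DMSO and from 5.66 to 21.9 TPM (median 16.9) with bortezomib. Every treated H77L mouse lay below every mouse with DMSO. In C118F the values were 56.6 to 580 TPM (median 372) with DMSO, against 66.1, 213, 85.8, 177 and 152 TPM with bortezomib, and these groups overlapped. The gene fell by 3.52 in H77L on the log2(TPM + 1) scale (SE 0.57, adjusted p = 0.0264), and its difference in C118F was -1.12 (SE 0.60, adjusted p = 0.506). The interaction was -2.40 (95% confidence interval -4.10 to -0.69), with an unadjusted p of 0.00793 and an adjusted p of 0.650. Control podocytes had a median of 5.38 TPM with DMSO.

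Mustn1, a small nuclear protein of the musculoskeletal system, gave a comparable picture at a smaller scale. It ran from 219 to 715 TPM (median 383) with DMSO and from 160 to 251 TPM (median 207) with bortezomib in H77L. In C118F it ran from 372 to 896 TPM (median 645) with DMSO, and treated mice had 445, 883, 613, 1174 and 525.6 TPM. All treated H77L mice lay below all treated C118F mice, while treated and untreated mice overlapped within each line. The interaction was -1.11 (95% confidence interval -1.90 to -0.33, adjusted p = 0.650), from -1.02 in H77L (adjusted p = 0.0891) and 0.09 in C118F (adjusted p = 0.923). Cd63, a tetraspanin of late endosomes, did not overlap between treated (598 to 802 TPM) and untreated H77L mice (836 to 1275 TPM), as did 1.15% of all genes in this direction. Its difference was -0.49 in H77L and -0.19 in C118F, and the interaction was -0.30 (95% confidence interval -0.78 to 0.18).

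Cdkn1c and Cldn5 lay on the other side. Cdkn1c encodes the cell cycle inhibitor p57 and is high in mature podocytes. It had 76.4 to 285 TPM (median 240) in H77L with DMSO and 300.0 to 557 TPM (median 449) with bortezomib, with no overlap, as in 1.20% of all genes in this direction. In C118F it had 146 to 382 TPM (median 222) with DMSO and 348, 261, 154, 139 and 146 TPM with bortezomib. The interaction was 1.28 (95% confidence interval 0.38 to 2.18, adjusted p = 0.650). Both lines stayed far below the controls, whose median was 4970 TPM with DMSO. Cldn5, a tight junction protein that podocytes express, had medians of 79.8 and 130 TPM in H77L and 59.2 and 68.8 TPM in C118F without and with bortezomib, and an interaction of 1.00 (95% confidence interval 0.08 to 1.92, adjusted p = 0.650). The lowest H77L DMSO value of both genes was from mouse 6, and without it the interactions were 1.00 for Cdkn1c and 0.71 for Cldn5.

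For the other genes that the study followed the estimates were nearer to 0. Interactions were 0.29 for the kinase Pak1, -0.30 for the actin crosslinker Flna, 0.06 for the smooth muscle protein Tagln, 0.09 for the complement inhibitor Serping1 and 0.09 for B2m, the light chain of MHC class I. Serping1 and B2m had differences of -0.88 and -0.91 in H77L and -0.97 and -1.004 in C118F, which did not pass the test (adjusted p from 0.203 to 0.408). Their intervals still allowed interactions of -0.82 to 1.00 for Serping1 and -0.9999 to 1.19 for B2m. Of the 10 genes, 0 passed the interaction test and 4 had an unadjusted p under 0.05 (7.60% of all genes), with 2 in each direction. The study picked these genes with the present libraries in view, so that their counts are not independent evidence.

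**Figure D2:**
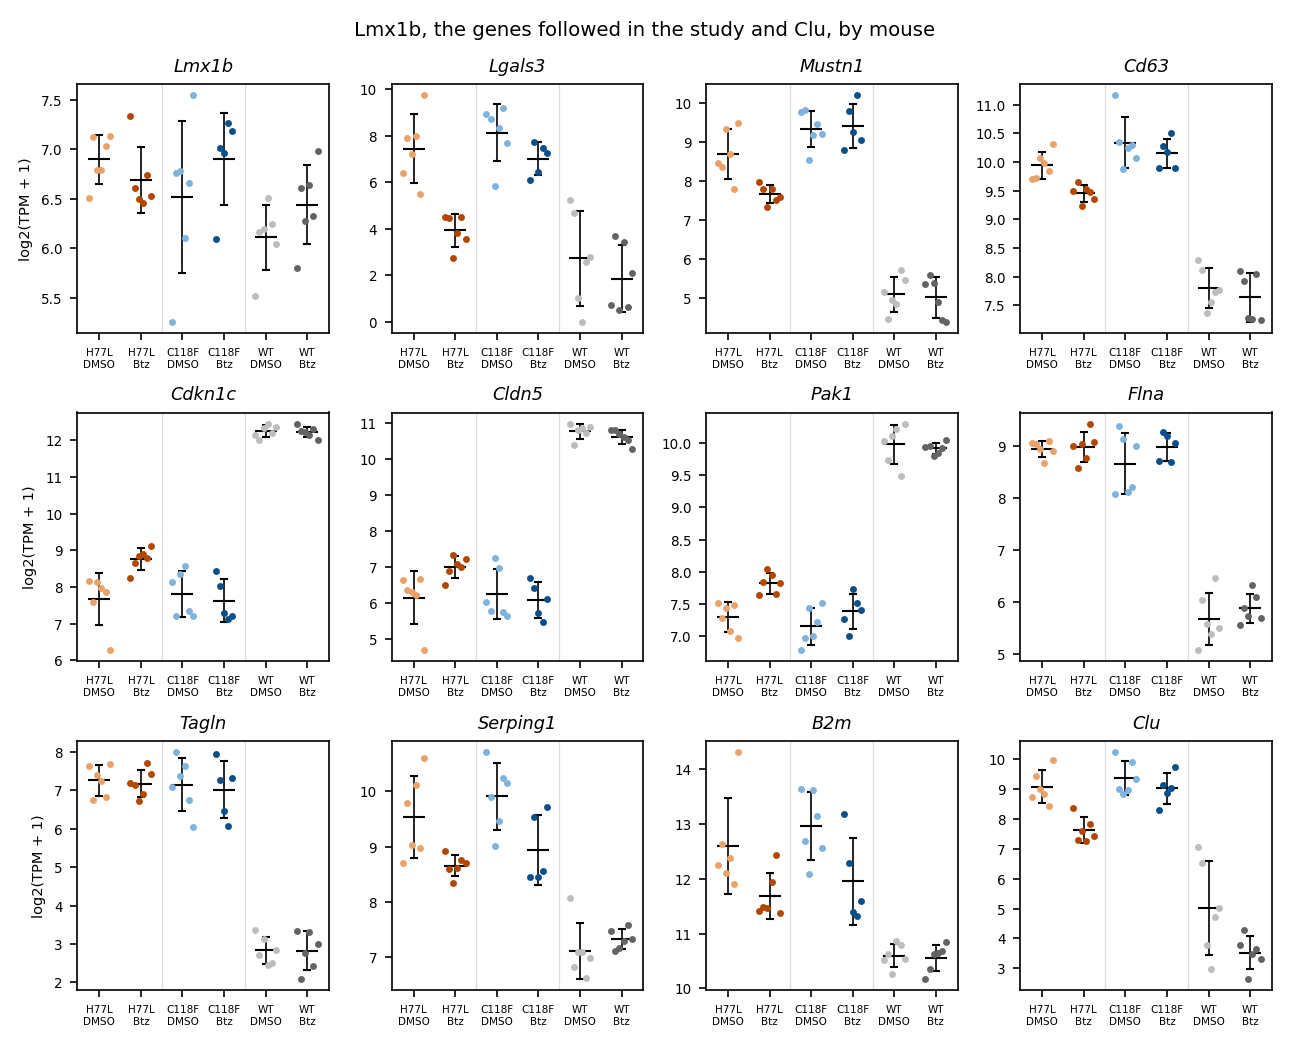
Level in log2(TPM + 1) (y axis) of 12 genes in each mouse (points) of the 6 groups (x axis: H77L, C118F and control WT mice with DMSO or bortezomib, Btz), with the mean and SD of each group. Lgals3 has medians of 191 and 16.9 TPM in H77L and 372 and 152 TPM in C118F without and with bortezomib. Cdkn1c and Cldn5 lie far below the controls in both lines.

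Genes of injured podocytes and of parietal epithelium had mostly negative interactions. Of 34 listed genes 24 were tested, and 20 had a negative and 4 a positive interaction, against 6563 and 4483 of all genes. Of the 24, 0 passed and 3 had an unadjusted p under 0.05, all negative (4.64% of all genes). Their median was -0.59, against -0.07 over all genes, made up of -0.83 in H77L and -0.35 in C118F. Between lines the members differed by a median of -0.35 among DMSO mice and -0.92 among treated mice (H77L minus C118F). The mean level of the list was 4.53 to 6.19 in H77L with DMSO and 3.83 to 4.46 with bortezomib, with no overlap, and 4.43 to 5.77 and 4.44 to 5.005 in C118F, where the groups overlapped. The mean of the 11 mesangial or muscle markers moved with it in H77L, at 2.38 to 2.91 with DMSO and 1.96 to 2.36 with bortezomib, also with no overlap, and their part in the result was not tested. H77L DMSO mouse 6 had the highest level of the injury list, and without it the median interaction was -0.24 and the H77L median -0.55. Without the 3 mice with markers of other cells the median interaction was -0.74.

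The 3 members that fell in H77L were Lgals3, Clu and S100a4, and 5 of the 24 did not overlap in H77L in this direction, against 0.154% and 1.15% of all genes. Clu encodes the secreted chaperone clusterin. Its TPM was 350 to 1011 (median 488) and 152 to 330 (median 181) in H77L without and with bortezomib, and 457 to 1207 (median 578) and 316, 570, 469, 524 and 863 in C118F. It fell by 1.45 in H77L (SE 0.27, adjusted p = 0.0404), against -0.36 in C118F, and the interaction was -1.09 (95% confidence interval -1.91 to -0.28, adjusted p = 0.650). S100a4, a calcium-binding protein, was listed at 0 in 5 treated H77L mice and at 0.302 TPM in 1, against 0 to 9.32 TPM (median 3.30) with DMSO. It fell by 1.99, on a scale that understates changes of such low genes, and its difference in C118F was -1.20. It passed the filter on low values only through the C118F mice with DMSO. Cldn1, the claudin of parietal cells, was among the 3 members with a low interaction p. Of 8 parietal cell markers taken as a list of their own, 5 were tested, with a median interaction of -0.23.

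Itga7, the laminin-binding integrin alpha 7, had 28.7 to 72.5 TPM (median 36.2) with DMSO and 10.9 to 20.4 TPM (median 15.1) with bortezomib in H77L. In C118F it had 25.9 to 67.3 TPM (median 46.2) with DMSO and 27.4, 67.0, 48.5, 103 and 46.8 TPM with bortezomib. Treated H77L mice were thus below all others. It fell by 1.28 in H77L (SE 0.26, adjusted p = 0.0404), and the interaction of -1.60 (95% confidence interval -2.38 to -0.81) ranked among the lowest by unadjusted p (0.000335) while its adjusted p was 0.587. Control podocytes had a median of 0.299 TPM with DMSO.

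Col16a1, a collagen of the fibril-associated class, fell by 1.98 in H77L, from a median of 7.19 to 1.92 TPM, and its medians in C118F were 7.66 and 5.33 TPM. Cav2, a caveolar protein, fell by 1.95 (median 60.3 to 14.3 TPM), and its interaction was -1.08. Pamr1, a secreted protein with a protease-like domain, fell by 0.88 (median 422 to 235 TPM), against -0.10 in C118F and an interaction of -0.78 (adjusted p = 0.650).

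Further genes that fell in H77L were Spire2, an actin nucleator, by 1.20, Ampd3, an AMP deaminase, by 1.77, the ATP-gated channel gene P2rx5 by 1.39, the tight junction gene Cgn by 1.03, Mfge8, which bridges apoptotic cells to phagocytes, by 0.89, the phospholipase gene Plcd1 by 0.86, the small GTPase gene Rab31 by 0.59, the lysosomal gene Grn by 0.47 and the membrane transporter gene Slc49a4 by 0.46. Their adjusted p in H77L was 0.0404 each. In C118F their differences were all below 0 as well, from -0.40 for Mfge8 to -0.08 for Plcd1, and 0 passed. Interactions ran from -1.50 for Ampd3 to -0.25 for Rab31. Whether the lines respond differently in these genes was thus not settled by the test.

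Among 88 listed matrix genes, 49 were tested, of which 2 fell in H77L (0.154% of all genes) and 6 did not overlap there in this direction (1.15% of all genes). The interaction was negative in 37 and positive in 12, 0 passed, and the median was -0.26. Without the 3 mice with markers of other cells it was -0.04, with 29 negative and 20 positive. Tnxb, tenascin XB, had the lowest unadjusted interaction p of all genes (5.19e-05, adjusted p = 0.574) at a low level: 0.669 to 1.68 TPM (median 1.24) and 0.423 to 1.18 TPM (median 0.700) in H77L, 0.0905 to 1.22 TPM (median 0.634) in C118F with DMSO, and 2.11, 3.04, 2.02, 3.40 and 1.76 TPM in C118F with bortezomib. Every treated C118F mouse lay above every other C118F mouse, as in 0.281% of all genes, but the gene passed the filter on low values only through the treated C118F mice, so that its p and this separation are in part set by the filter. The interaction was -1.42 (95% confidence interval -2.01 to -0.82), and the difference in C118F was 1.12 (adjusted p = 0.0566). Ccn1, a matricellular target of YAP, had an interaction of 0.74, from a median of 2857 to 5020 TPM in H77L, without overlap, and from 3374 to 3418 TPM in C118F (adjusted p = 0.0607 in H77L and 0.650 for the interaction). Matrix proteases and their inhibitors (22 of 35 tested) had a median of -0.19 (-0.03 without H77L DMSO mouse 6), with Adam10 at -0.36. The only member of these with an unadjusted interaction p under 0.05 was positive, and members reached 0.84.

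Cytosolic chaperones had mostly positive interactions. Of 27 heat shock genes all were tested, and 23 had a positive and 4 a negative interaction, against 4483 and 6563 of all genes. Of the 27, 0 passed and 8 had an unadjusted p under 0.05, all positive (2.97% of all genes). The median interaction was 0.20, with 0.28 in H77L and 0.03 in C118F, and these medians moved little without the 3 mice with markers of other cells (0.21, 0.28 and 0.00). Members differed between the lines by a median of -0.04 among DMSO mice and 0.18 among treated mice.

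Dnajb1, the HSP40 co-chaperone of HSP70 and a target of heat shock factor 1, was the single gene that rose in H77L. It had 77.03 to 412 TPM (median 163) with DMSO and 252 to 1384 TPM (median 832) with bortezomib, with overlap. The C118F values were 103 to 288 TPM (median 133) with DMSO and 172, 237, 78.5, 109 and 85.4 TPM with bortezomib. The rise in H77L was 2.11 (SE 0.42, adjusted p = 0.0404), and the difference in C118F was -0.34 (SE 0.44). The interaction was 2.45 (95% confidence interval 1.20 to 3.69), with an unadjusted p of 0.000459 and an adjusted p of 0.587. Controls also varied widely without the drug, from 65.02 to 970 TPM with DMSO, against 73.5 to 144 TPM with bortezomib.

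Hspa1a and Hspa1b encode the inducible HSP70 and are near-identical copies, so that the split of reads between them is uncertain. Their summed level was 98.8 to 2058 TPM (median 603) in H77L with DMSO and 985 to 5130 TPM (median 2531) with bortezomib. In C118F it was 204 to 1299 TPM (median 619) with DMSO and 146 to 1072 TPM (median 389) with bortezomib. The sum differed by 2.26 in H77L and by -0.70 in C118F. Controls also had lower values with the drug, at 196 to 1929 TPM (median 916) with DMSO and 89.7 to 366 TPM (median 267) with bortezomib. Alone, Hspa1b had the larger interaction, 3.25 (95% confidence interval 1.30 to 5.21, adjusted p = 0.650), and Hspa1a had 2.63 (0.83 to 4.44). Dnajb4, another HSP40 protein, did not overlap in H77L (103 to 160 TPM with DMSO, 173 to 227 TPM with bortezomib), whereas treated C118F mice had 135, 120, 140, 147 and 117.2 TPM within an untreated range of 72.0 to 189 TPM. Its interaction was 0.59 (adjusted p = 0.650), and the controls had medians of 130 and 200 TPM without and with bortezomib.

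The letters of a perfect heat shock element, GAANNTTCNNGAA or TTCNNGAANNTTC on the other strand, occurred in the 250 bases before the start of 2 of 21 chaperone genes with a RefSeq promoter (GRCm38.p6), against 0.457% of 8537 tested genes with one. The genes were Hspe1 and Hspd1, which share a promoter between them, so that both count the same stretch. Among these promoters no match was found for Dnajb1, Hspa1a, Hspa1b or Dnajb4, and a match describes letters and not factor binding. The stretch is shown because a cluster of overlapping matches, in capitals, lies in it (chr1:55088029-55088106, plus strand).
Hspe1: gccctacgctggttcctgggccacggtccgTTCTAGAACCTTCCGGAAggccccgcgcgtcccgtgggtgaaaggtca

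Proteasome genes also had mostly positive interactions. Of 40 subunits, assembly factors and regulators, 33 had a positive and 7 a negative interaction, 0 passed, and the median was 0.18, with 0.18 in H77L and 0.01 in C118F. An unadjusted interaction p under 0.05 was reached by 9 positive members (2.97% of all genes) and 1 negative member (4.64%). In H77L 18 members were higher at an unadjusted p under 0.05 (6.69% of all genes), and in C118F 2 were (7.28%). Psmg1, an assembly chaperone, had 0.51, from a median of 44.1 to 63.4 TPM in H77L and from 52.3 to 46.0 TPM in C118F. Psma2, an alpha subunit of the core, had 0.30. Psme4, a regulatory cap, had -0.61. Their adjusted p was 0.650.

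Interferon-induced genes had mostly positive interactions. Of 69 genes 43 were tested, and 39 had a positive and 4 a negative interaction, against 4483 and 6563 of all genes. Of the 43, 0 passed and 12 had an unadjusted p under 0.05, all positive (2.97% of all genes). The median was 0.79, with -0.51 in H77L and -1.50 in C118F, so that the positive sign stands for a deeper negative difference in C118F. In C118F 36 members were lower at an unadjusted p under 0.05, against 3.50% of all genes, and in H77L 6, against 6.19%. In C118F 8 members did not overlap in this direction, against 0.217% of all genes. Between the lines the members differed by a median of -0.76 among DMSO mice (H77L minus C118F) and 0.03 among treated mice.

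The C118F mice with DMSO were uneven. The mean level of the list was 5.07, 3.31, 2.73, 3.12, 4.68 and 3.61 in mice 1 to 6, while treated C118F mice had 2.30 to 2.92, H77L mice 2.66 to 3.88 with DMSO and 2.45 to 2.85 with bortezomib, and controls 2.31 to 2.84. Mouse 1 is the mouse with endothelial, mesangial and leukocyte markers. Mouse 5 had endothelial, leukocyte and mesangial levels of 1.09, 0.83 and 2.19, within the range of the H77L mice, whose highest levels were 1.80, 1.28 and 2.91. Without mouse 1 the median interaction was 0.47 and the C118F median -1.04. Without C118F DMSO mouse 3, which had the lowest level, they were 1.02 and -1.76. Without the 3 mice with markers of other cells the median interaction was 0.56, with 38 positive and 5 negative. With the endothelial markers as a covariate it was 0.51. The part of other cells in this group was not tested further.

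Xaf1, an interferon-induced apoptosis regulator, was the gene that fell in C118F. It had 13.02 to 59.4 TPM (median 25.03) with DMSO and 13.3, 4.22, 8.39, 8.28 and 7.11 TPM with bortezomib, and in H77L 8.16 to 16.2 TPM (median 10.3) with DMSO and 6.88 to 12.1 TPM (median 9.93) with bortezomib. It fell by 1.65 in C118F (SE 0.28, adjusted p = 0.0307), the difference in H77L was -0.16, and the interaction was 1.49 (95% confidence interval 0.68 to 2.30, adjusted p = 0.587). Without C118F DMSO mouse 1 the interaction was 1.26. Ifi27, a mitochondrial interferon-induced protein, had 386 to 708 TPM (median 476) in C118F with DMSO and 336, 341, 258, 261 and 325 TPM with bortezomib, without overlap, and an interaction of 0.59 (adjusted p = 0.650). Cmpk2, a mitochondrial nucleotide kinase, had 1.35, with C118F medians of 19.6 and 8.42 TPM. Isg15, a ubiquitin-like modifier, had C118F values of 23.6 to 181 TPM (median 33.7) with DMSO and 5.65, 8.74, 11.2, 11.4 and 17.6 TPM with bortezomib, and an interaction of 1.62 (95% confidence interval 0.37 to 2.88, adjusted p = 0.650).

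MHC class I and antigen processing genes went with this group. Of 23 tested, 16 had a positive and 7 a negative interaction, 0 passed, 8 had an unadjusted p under 0.05, all positive (2.97% of all genes), and the median was 0.32. It was 0.14 without C118F Btz mouse 4 and 0.19 with mouse number as a covariate. Psmb8 and Psmb9, the interferon-induced catalytic subunits of the immunoproteasome and, like the subunits they replace, part of the particle that bortezomib inhibits, had interactions of 2.00 (95% confidence interval 0.36 to 3.63) and 1.94 (0.66 to 3.21), adjusted p = 0.650 each. Psmb9 had 8.68 to 116 TPM (median 25.6) in C118F with DMSO and 9.36, 6.71, 3.30, 9.37 and 6.83 TPM with bortezomib. In H77L its medians were 8.84 and 9.80 TPM. Psmb9 overlaps Tap1 on the other strand, and the sources used here do not state strand-specific counting. Psme2, a subunit of the interferon-induced proteasome activator, had 0.88.

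Letters of an interferon-stimulated response element, GAAANNGAAA or TTTCNNTTTC on the other strand, occurred in the 250 bases before the start of 17 of 34 interferon-induced genes with a RefSeq promoter, against 2.83% of 8537 tested genes with one. Such a match is a description of letters and not of factor binding. For Lgals9, Isg15 and Gbp3, the matching genes with the lowest p in C118F (chosen after their values were seen), the stretch around the match is shown in the direction of transcription, with the match in capitals. Lgals9, which encodes galectin 9, is at chr11:78984940-78985009 (minus strand), Isg15 at chr4:156200845-156200926 (minus strand) and Gbp3, a guanylate-binding protein, at chr3:142559969-142560043 (plus strand), in GRCm38.p6.
Lgals9: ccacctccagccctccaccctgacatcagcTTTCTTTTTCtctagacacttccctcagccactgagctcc
Isg15: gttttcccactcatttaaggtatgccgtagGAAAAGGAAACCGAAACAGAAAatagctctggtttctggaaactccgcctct
Gbp3: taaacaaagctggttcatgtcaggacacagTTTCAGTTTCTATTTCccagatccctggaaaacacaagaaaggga
Lgals9 had C118F medians of 76.4 and 25.2 TPM without and with bortezomib and H77L medians of 43.6 and 22.6 TPM. Gbp3 ran from 6.55 to 445 TPM (median 43.4) in C118F with DMSO and had 5.83, 4.81, 1.85, 4.32 and 11.8 TPM with bortezomib. Their interactions were 0.79 and 2.20 (adjusted p = 0.651 and 0.650).

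**Figure D3:**
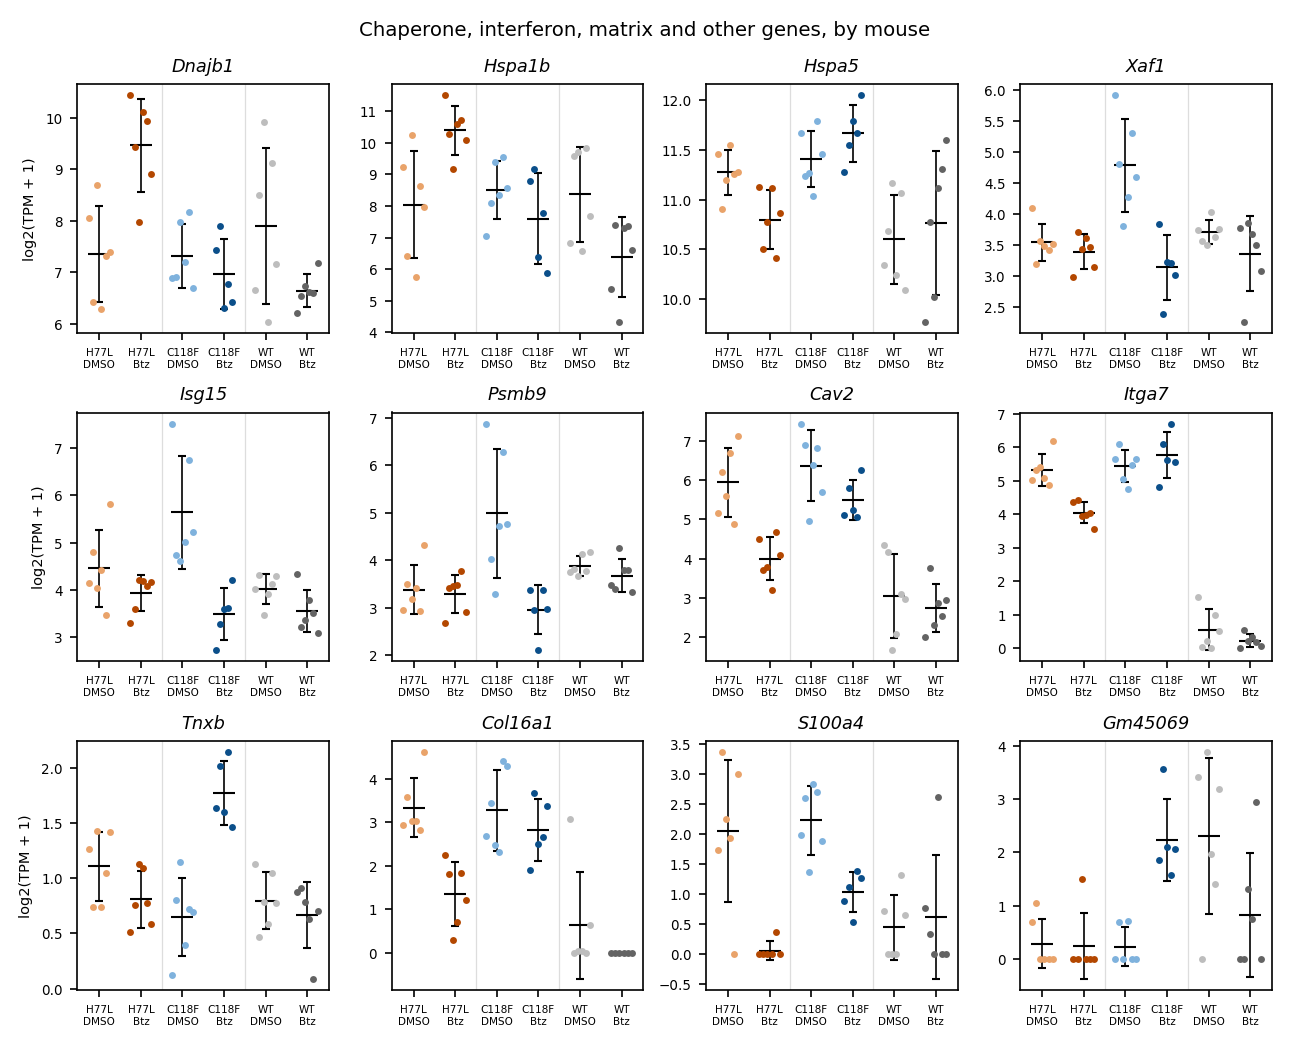
Level in log2(TPM + 1) (y axis) of 12 chaperone, interferon, matrix and other genes in each mouse (points) of the 6 groups (x axis: H77L, C118F and control WT mice with DMSO or bortezomib, Btz), with the mean and SD of each group. Dnajb1 is high in treated H77L mice (median 832 TPM), Xaf1, Isg15 and Psmb9 are high in C118F mice with DMSO, and Gm45069 is at 1.98 to 10.8 TPM in treated C118F mice.

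Genes of the endoplasmic reticulum had mostly negative interactions, as did 59.4% of all genes. Of 28 genes of the unfolded protein response 26 were tested, 20 had a negative and 6 a positive interaction, and 0 passed. An unadjusted p under 0.05 was reached by 6, all negative (4.64% of all genes). The median was -0.24, with -0.21 in H77L and 0.18 in C118F. After centring each mouse on its median it was -0.15 with 18 of 26 negative, and with mouse number as a covariate it was -0.15 with 17 of 26 negative. Hspa5, the main chaperone of the organelle, had medians of 2472 and 1808 TPM in H77L without and with bortezomib. In C118F it had 2094 to 3540 TPM (median 2636) with DMSO and 2482, 3003, 3535, 3260 and 4244 TPM with bortezomib, and its interaction was -0.74 (95% confidence interval -1.20 to -0.27, adjusted p = 0.650). Edem1, which sorts misfolded glycoproteins for degradation, had -0.54, and Dnajc3, a co-chaperone of Hspa5, had -0.54. Ssr3, a subunit of the complex at the translocation channel, did not overlap in H77L (414 to 476 TPM with DMSO, 334 to 375 TPM with bortezomib), had treated C118F values of 420, 448, 532, 500 and 456 TPM, and an interaction of -0.46 (adjusted p = 0.587).

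The remaining genes with the lowest unadjusted interaction p, none of which passed, had no common listed function. Gm45069, a long noncoding RNA gene at chr7:6285701-6286914, rose in C118F by 1.99 (SE 0.33, adjusted p = 0.0307). It had 2.61, 10.8, 3.31, 1.98 and 3.16 TPM in treated C118F mice, at most 0.632 TPM with DMSO, a median of 0 in both H77L groups and 0 to 13.7 TPM in controls with DMSO, and an interaction of -2.03 (adjusted p = 0.587). The gene passed the filter on low values only through the treated C118F mice, where it was high, so that the filter helped to fix its direction, and with no such filter 0 genes passed in C118F. The highest value was from C118F Btz mouse 2, the shallowest library. Negative interactions were also estimated for Dlgap1, a scaffold protein of synapses (interaction -1.14), Atp2b4, a plasma membrane calcium pump (-1.18), Inpp4b, a phosphoinositide phosphatase that passed the filter only through H77L mice with DMSO and treated C118F mice (-1.18), Echdc2 (-0.96) and Tdg, a DNA repair glycosylase (-0.94). Dlgap1 had 4.15 to 7.44 TPM in treated H77L mice and 7.00, 10.4, 6.95, 13.05 and 9.65 TPM in treated C118F mice. Atp2b4 had 3.96 to 9.45 TPM and 8.62, 18.7, 15.0, 17.7 and 9.99 TPM in the same groups.

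On the other side were Hpf1, the partner of PARP1 in serine ADP-ribosylation (0.57), Agpat4, an acyltransferase of phospholipid synthesis (0.44), Iftap (0.70), Grtp1 (0.81), Them4 (0.76), Tmem141 (0.66), the early endosome GTPase gene Rab5c (1.12) and the noncoding D330023K18Rik (0.96), which overlaps Gpr107 on the other strand. Hpf1 had 42.9 to 51.5 TPM in H77L with DMSO and 54.3 to 65.4 TPM with bortezomib, without overlap. In C118F it had 43.6 to 63.9 TPM with DMSO and 49.6, 44.5, 43.3, 40.0 and 38.6 TPM with bortezomib. Its interval, 0.30 to 0.84, was narrow, and its adjusted p was 0.587.

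Genes of mitochondria and ribosomes had mostly positive interactions as well, with medians close to the 0.20 of the heat shock genes. At an unadjusted p under 0.05, 34 of 73 oxidative phosphorylation and 13 of 75 ribosomal protein genes were higher in H77L, against 6.69% of all genes. In C118F 2 and 0 were, against 7.28% of all genes. Interactions were positive in 66 of 73 oxidative phosphorylation genes (median 0.21) and in 74 of 75 ribosomal protein genes (median 0.24), and 0 passed in either. Without the 3 mice with markers of other cells these were 60 of 73 with a median of 0.11 and 56 of 75 with a median of 0.07. Cox7a2, a subunit of cytochrome oxidase, had 0.37 and Rps16, of the small ribosomal subunit, 0.41. Slit diaphragm and podocyte genes had a median of -0.21 (36 of 48 negative), from 0.11 in H77L and 0.37 in C118F, and without the 3 mice it was 0.04 with 23 of 48 negative. The scaffold gene Tjp1 had -0.97 (95% confidence interval -1.75 to -0.18, adjusted p = 0.650). The 10 podocyte markers had a median of -0.01 with 5 negative, and without the 3 mice 0.14 with 1 negative.

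Autophagy and lysosome genes were negative in 39 of 46, with a median of -0.20, and -0.09 without the 3 mice. Hexa, a subunit of a lysosomal hexosaminidase, had -0.45, from a median of 295 to 223 TPM in H77L and of 302 to 309 TPM in C118F. Immediate early genes were negative in 28 of 36 (median -0.28, and -0.09 without the 3 mice or without C118F DMSO mouse 1), but in 16 of 36 with the endothelial markers as a covariate (median 0.03) and in 18 of 36 with array weights (median -0.02). Among them Klf10, a TGF-beta-induced factor, had -1.07. TGF-beta and YAP genes were negative in 28 of 36 (median -0.22, and -0.10 without the 3 mice), with the signal transducer Smad3 at -0.91. The only TGF-beta or YAP member with an unadjusted interaction p under 0.05 was positive, and members reached 0.80. NF-kappaB genes were negative in 15 of 21 (median -0.17, and -0.03 without the 3 mice), with the cytokine suppressor Socs3 at -1.10 and Nfkb2 at -0.30. Of 7 complement genes tested 4 were negative, and C1s1, a protease of the classical pathway, had -0.81. Medians were -0.08 for 40 contractile genes (Crip2 -0.57, Vim -0.36), -0.05 for 30 oxidative stress genes (Sod1 0.35) and -0.10 for 19 cell cycle genes (Mcm6 -0.57). Cdkn1c, at 1.28, was the only cell cycle member with an unadjusted interaction p under 0.05. In all of the lists of this paragraph 0 genes passed.

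**Figure D4:**
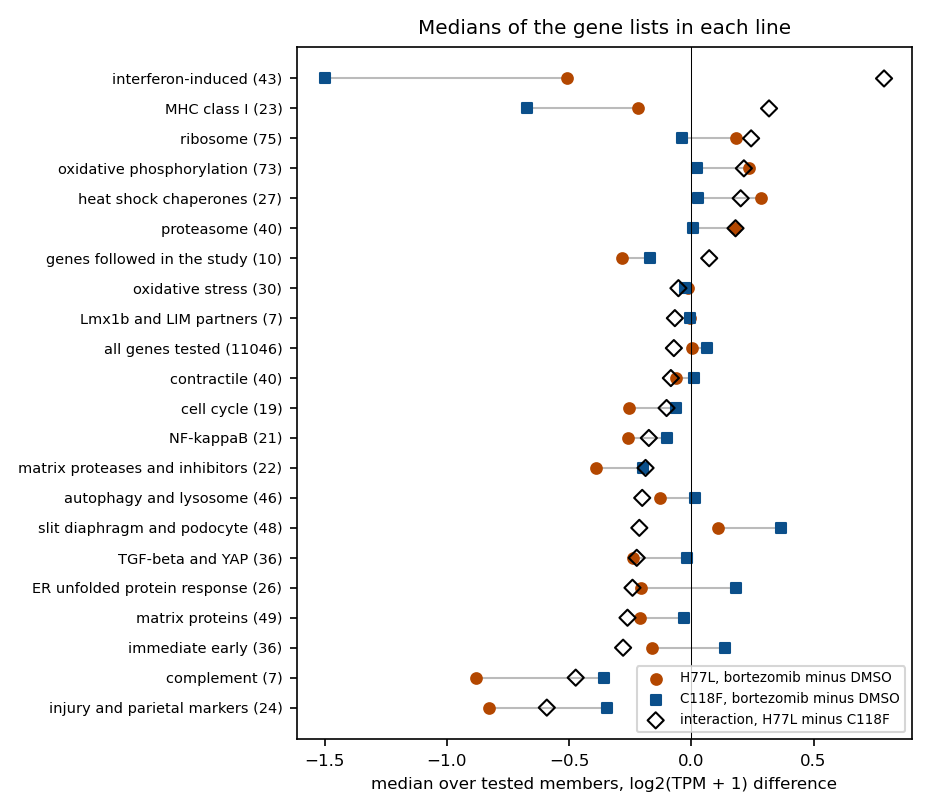
Median over the tested members (number in parentheses) of 21 gene lists and of all genes (y axis), in log2(TPM + 1) (x axis), for bortezomib minus DMSO in H77L (orange circles) and in C118F (blue squares) and for the interaction (open diamonds). Interferon-induced genes have a median interaction of 0.79 and injury and parietal markers one of -0.59 (-0.24 without H77L DMSO mouse 6), and no member of any list passed the interaction test.

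**Figure D5:**
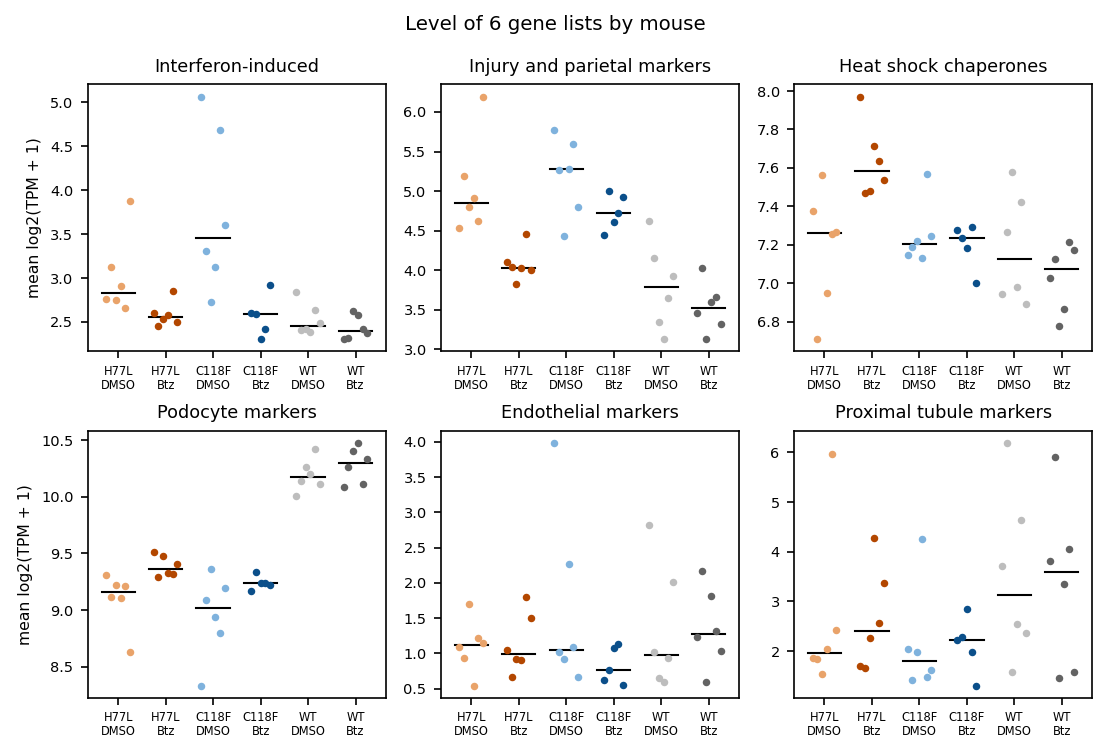
Mean log2(TPM + 1) over the members (y axis) of 6 gene lists in each mouse (points) of the 6 groups (x axis), with the group median as a line. Interferon-induced genes are at 5.07 and 4.68 in 2 C118F mice with DMSO, injury markers do not overlap between treated (3.83 to 4.46) and untreated (4.53 to 6.19) H77L mice, and C118F DMSO mouse 1 is high in endothelial markers (3.98).

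The lines were last compared without a shared estimate of the spread. In the 12 H77L mice alone 125 of 10813 genes passed (1.16%), of which 80 fell (0.740%) and 45 rose (0.416%). In the 11 C118F mice alone 0 of 10814 passed in limma and 634 had an unadjusted p under 0.05 (5.86%). The genes that fell in H77L could be read in C118F, whose mice had no part in choosing them, for 79 of 80. There 66 were below 0 and 13 above 0, against 3926 below and 6655 above 0 among all 10581 genes tested in both. The median of the 79 genes was -0.27 in C118F, against 0.07 for all genes tested in both. In H77L the median of the 79 was -0.88, which is inflated by the choice. The 45 genes that rose in H77L had a median of 0.08 in C118F, with 27 above and 18 below 0, which is close to the value for all genes. Of the 4 genes with the lowest unadjusted p in H77L alone (adjusted p = 0.0184 each), Lgals3 was below 0 in C118F (-1.12), Pamr1 close to 0 (-0.10), and Dnajb4 (0.11) and Itga7 (0.32) above 0. The genes that fell in H77L thus lay below 0 in C118F more often than all genes did. For those that rose no such excess above 0 was seen. The sizes in both lines cannot be compared, because the genes were chosen by their values in H77L. Genes of a mouse share its library and are not replicates, and these counts were not repeated without single mice.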

How the data were processed

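The authors trimmed single-end reads of poly(A) RNA with Trim Galore 0.6.7, aligned them with STAR to GRCm39 with Ensembl annotation and counted them with featureCounts 1.6.3. The deposited values are TPM, one column per mouse, and how counts became TPM is not given in the sources used here. Groups came from the labels. Of 33292 gene IDs 32776 had a name and position in GENCODE (GRCm39). log2(TPM + 1) of 23 mice was fitted with limma 3.58.1 (R 4.3.3; eBayes with an intensity trend, 4 group means), for genes with TPM above 1 in every mouse of a group. Calls needed an adjusted p (Benjamini-Hochberg over all tested genes) under 0.05. Whole reads were recovered for 99.996% of the 23943 genes above 0 (within 0.001 reads) and gave the depth. Alternatives were pseudocounts, filters, scalings, variance models, covariates, all 35 mice, thresholds and leaving out each mouse. A fit of recovered reads with voom and one without 3 mice with markers of other cells were chosen after seeing the data.

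Members, gene lists and tests were chosen with earlier results of these data known. Named were Lmx1b and 10 genes followed in the study, the 10 genes per direction with the lowest interaction p, up to 3 genes per list, the 4 genes with the lowest p in H77L alone, all genes called in 1 line, and Lgals9, Isg15 and Gbp3. Some genes that this rule names are not reported here. Lists were described by counts and medians. Replicates are separate mice, numbered in accession order. Promoter letters came from RefSeq.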

Additional observations from a re-analysis of the deposited data

Results flagged for a closer look

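In 77 named genes and 4 groups each, 19 of 308 sets of values held a mouse whose gap to its nearest neighbour, as a share of the range on the log2(TPM + 1) scale, exceeded Dixon's critical value. Chance alone gives about 1 in 20. Values are TPM. H77L DMSO mouse 6 had 5 of them: it was lowest for Cdkn1c (76.4, next 191) and Cldn5 (24.98, next 74.5) and highest for B2m (20278, next 6358), Psme2 (205, next 180.1) and Crip2 (325, next 178). This mouse also had the highest level of injury and parietal markers, 6.19.

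C118F Btz mouse 1 had 3: it was lowest for Lmx1b (67.5, next 123) and Tjp1 (276, next 494) and highest for Psme2 (211, next 174). Among the other treated C118F mice, mouse 2 was highest for Gm45069 (10.8, next 3.31), mouse 4 highest for Slc49a4 (53.4, next 44.3) and mouse 5 lowest for Psmg1 (36.7, next 45.6). Of C118F mice with DMSO, mouse 1 was highest for Cd63 (2293, next 1307) and mouse 6 lowest for Rps16 (110.2, next 157).

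Of treated H77L mice, mouse 1 was highest for Lmx1b (161, next 106), mouse 3 highest for Iftap (37.7, next 29.5) and for Gm45069 (1.84, all others 0) and mouse 5 highest for S100a4 (0.302, all others 0). Of H77L mice with DMSO, mouse 2 was highest for Tjp1 (623, next 427) and mouse 4 lowest for Grtp1 (3.61, next 5.595).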

How the results depend on the processing

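The number of genes passing the interaction test was 0 under all alternatives run, including each of 23 fits without 1 mouse. The counts of the separate lines were not stable, and the cause was not tested. For H77L (18 genes) they were 44 with log2(TPM + 0.1), 0 without a filter on low values, 70 with all 35 mice, 29 after quantile normalisation, 2 without an intensity trend, 0 with robust eBayes, 356 with array weights, 120 with mouse number, 44 with Y-linked level, 1 with leukocyte and 32 with endothelial markers as covariate, 0 with voom, 108 without the 3 mice with markers of other cells, 117 at an adjusted p under 0.1 and 0 under 0.01. For C118F (2 genes) they were 0 with log2(TPM + 0.1), without a filter, centred on each mouse's median, with array weights, with Y-linked, leukocyte or endothelial covariates, with voom, without the 3 mice and under 0.01, 1 with TPM above 5, 30 with all 35 mice, 10 after quantile normalisation and 20 under 0.1. Leaving out 1 mouse gave 0 to 66 for H77L and 0 to 34 for C118F. Of 78 genes checked 74 kept the sign of their interaction in each alternative that gave a value. The others were near 0: with mouse number, Y-linked level, endothelial markers and without the 3 mice Tagln was -0.16, -0.070, -0.012 and -0.14, and B2m -0.036, -0.082, -0.16 and -0.38, with B2m at -0.045 with leukocyte markers. Serping1 was -0.017 with Y-linked level and -0.11 without the 3 mice, and Flna 0.013 without them. Leaving out 1 mouse moved Tagln from -0.18 to 0.29, B2m from -0.067 to 0.43 and Serping1 from -0.078 to 0.30. Of the 20 genes called in 1 line, the 19 checked kept their sign, and each lost its call in 9 to 18 alternatives. No paired analysis was possible because the labels give mouse numbers but no replicate numbers shared between groups.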
